A study of Mus musculus with 6 samples.

Results

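The sebaceous gland lipid genes were 10 genes chosen by symbol for their roles in making sebum or controlling the gland. They were the desaturase genes Scd1 and Scd3, the elongase gene Elovl3, the fatty acyl reductase gene Far2, the acyltransferase genes Awat1, Awat2, Dgat2, Mogat2 and Soat1, and the receptor gene Mc5r. All 10 were among the 34590 gene symbols counted. Of these, 9 had enough counts to be tested, and Mogat2 did not.

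Sebaceous glands sit on hair follicles and release an oily mixture, sebum, when lipid-filled cells burst. In the cell, fatty acids are lengthened by elongases, made unsaturated by stearoyl-CoA desaturases and partly reduced to fatty alcohols. Acyltransferases then join fatty acids to those alcohols (wax esters), to glycerol (triglycerides) or to cholesterol (sterol esters). Mice without Scd1 are known for shrunken sebaceous glands and sparse hair.

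The tested skin came from 3 Tnip1-/- mice (knockout) and was set against skin of 3 Tnip1+/+ mice (wild type), all on the C57BL/6 background. Tnip1 encodes a ubiquitin-binding protein that works with the deubiquitinase A20 to limit NF-kB activity. By the sample labels, every mouse of both genotypes had imiquimod, a Toll-like receptor 7 agonist that inflames the skin, applied for 2 days, and untreated skin was not analysed here. RNA was taken from whole skin biopsies. Fewer sebaceous cells, less RNA per sebaceous cell and unequal shares of other tissues in the biopsy therefore cannot be told apart. The labels give neither age, sex nor the deleted part of Tnip1. The submitters' library names begin with SJMMNORM for every knockout library and with SJMMIMQ for every wild type library. The labels use IMQ for imiquimod and do not explain NORM. Whether the prefixes mark a project, a batch or a difference in treatment is not given in the sources used here, and in every comparison of the genotypes what they mark cannot be told apart from genotype.

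Libraries held 19529970 to 25864730 gene counts in knockout skin and 24701074 to 31005554 in wild type skin. Tnip1 had 47, 37 and 35 counts in the knockout libraries, against 938, 739 and 703 in the wild type libraries. The libraries differed in tissue and in sex-linked transcripts in ways that touch the results. Xist, expressed from the inactive X chromosome of females, stood at 0.345, 0.339 and 483 CPM (counts scaled to library size with TMM factors) in knockout replicates 1, 2 and 3. It stood at 0.06, 698 and 780 CPM in wild type replicates 1, 2 and 3, so each genotype held libraries with and without Xist. The Y-linked gene Ddx3y was at 135, 145 and 0.0522 CPM in the knockout libraries and at 129, 1.90 and 0.037 CPM in the wild type libraries. The 9 adipocyte markers summed to 74.3 to 1323 CPM in knockout skin and 2129 to 4042 CPM in wild type skin. Knockout replicate 2 nearly lacked them, with 0.593 CPM of adiponectin (Adipoq) and 0.169 CPM of perilipin 1 (Plin1). The 10 skeletal muscle markers summed to 2831 to 4623 CPM in knockout skin and to 9485 to 16805 CPM in wild type skin. The hair matrix and inner root sheath markers, 16 of them in the files, summed to 6.95 to 7.93 CPM in knockout skin. They summed to 10.1, 6.29 and 77.0 CPM in wild type replicates 1, 2 and 3, so wild type replicate 3 stood apart. Foxn1 alone, which was not called (log2 0.78), held 4.78, 3.73 and 3.81 CPM of the knockout sums and 2.82, 1.56 and 2.81 CPM of the wild type sums. Of the 5 hair markers tested, 1 was lower (Krt28, log2 -3.67, adjusted p = 0.0161) and 0 were higher. Over all tested genes 22.7% were lower and 22.3% higher. The call of Krt28 ended without knockout replicate 1 or 3 (-3.35 and -3.45). The 6 epidermal keratinocyte markers summed to 21243 to 24693 CPM in knockout skin and to 7911 to 13020 CPM in wild type skin. Of these, 3 rose (Krt5, Krt14 and Krt1) and 1 fell (Krt10, log2 -0.95, adjusted p = 0.0292), while Trp63 (0.07) and Dsp (0.44) did not pass the test. The calls of Krt5 and Krt10 each ended without any 1 of 4 libraries (Krt5 0.94 to 1.20, Krt10 -1.06 to -0.69), and that of Krt5 with library totals alone (1.03). Krt14 alone averaged 11551 CPM in knockout skin and 1985 CPM in wild type skin.

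Of the 9 tested genes, 5 were lower in knockout skin (Scd1, Scd3, Awat2, Mc5r and Far2) and 0 were higher, by edgeR's quasi-likelihood test at an adjusted p under 0.05. Over all 16691 tested genes, 22.7% were lower and 22.3% higher, and 45.1% were called either way. With library totals in place of TMM factors, 28.8% of all tested genes were lower and 14.9% higher. The median log2 fold change, knockout minus wild type, was -1.64 over the 9 genes and -0.04 over all tested genes. Awat1, Elovl3, Dgat2 and Soat1 did not pass the test, and Elovl3 and Dgat2 had values above 0. In TMM-scaled CPM, knockout and wild type libraries did not overlap for 7 of the 9 genes, where this held for 59.8% of all tested genes. For 6 of the 9 every knockout library was below every wild type library, against 30.5% of all tested genes. The summed level of the 10 genes was 1711, 2435 and 1201 CPM in knockout replicates 1, 2 and 3, against 3982, 5882 and 6873 CPM in wild type replicates 1, 2 and 3. Scd1 alone made up 53.4% to 61.4% of this sum in knockout skin and 68.7% to 80.9% in wild type skin. The other 9 genes summed to 798, 1051 and 464 CPM in knockout replicates 1, 2 and 3, against 1248, 1124 and 1740 CPM in wild type replicates 1, 2 and 3.

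**Figure D1:**
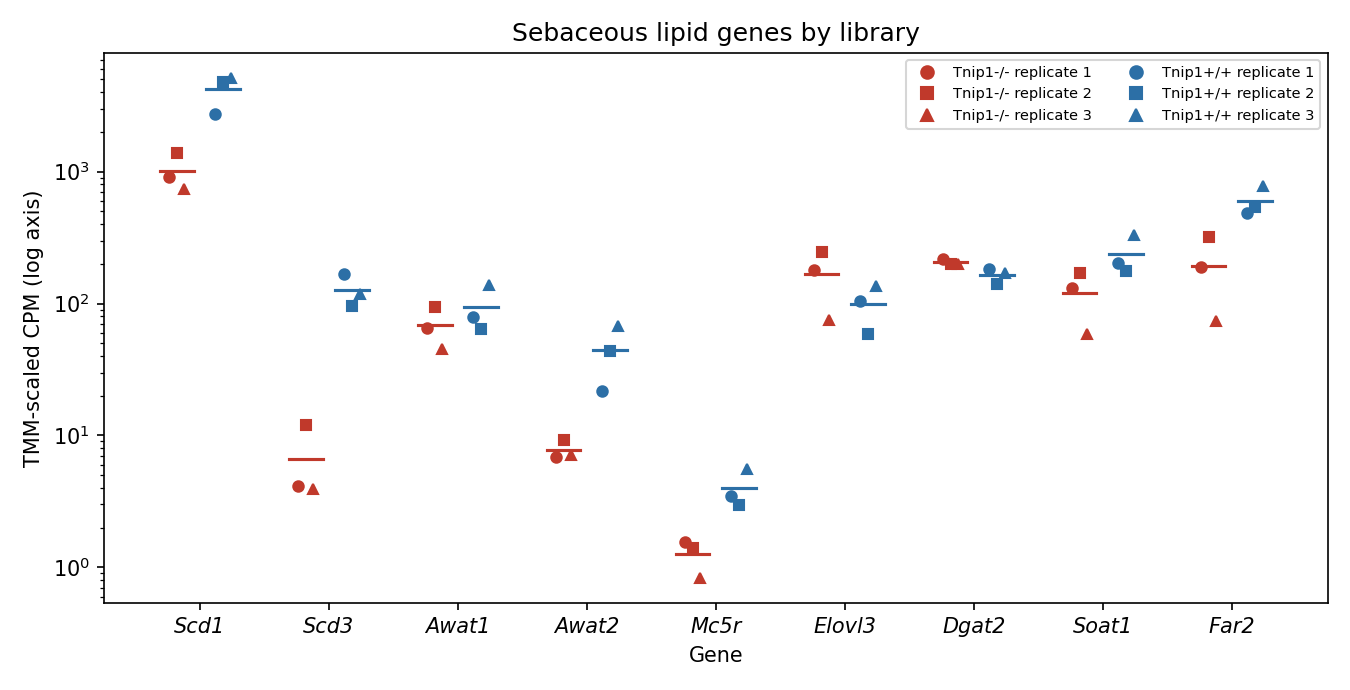
Level of each tested gene in each library, as TMM-scaled CPM on a log axis, with knockout libraries left (red) and wild type libraries right (blue) of each gene and a bar at the mean of 3. Scd1, Scd3, Awat2, Mc5r, Soat1 and Far2 show every knockout point below every wild type point, Dgat2 shows the opposite, and Awat1 and Elovl3 overlap.

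Scd1 encodes the stearoyl-CoA desaturase of sebocytes, which makes saturated fatty acids monounsaturated, and is also expressed in fat and liver. Scd1 had 913, 1384 and 737 CPM in knockout skin, against 2734, 4758 and 5133 CPM in wild type skin. The lowest wild type library was above the highest knockout library. It averaged 1012 ± 334 CPM in knockout skin and 4208 ± 1291 CPM in wild type skin (SD, n = 3 each), which left 24.0% of the wild type level. The log2 fold change of Scd1 was -2.06, with an SE of 0.34 and an adjusted p of 0.00399 over all tested genes (edgeR). Knockout replicate 2, which nearly lacked adipocyte markers, had the highest Scd1 of the 3 knockout libraries. Without that library the fold change of Scd1 was -2.33 and it was still called. Wild type replicate 1 had the lowest Scd1 and the lowest adipocyte sum of the wild type libraries. The part of fat in the decrease of Scd1 was not tested.

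Scd3 encodes a desaturase of mouse skin with a strong tie to the sebaceous gland. Scd3 had 4.14, 12.0 and 3.92 CPM in knockout skin, against 167, 96.6 and 117 CPM in wild type skin. No other tested gene of the 10 was as far apart between the genotypes. It fell by 4.24 (log2, SE 0.50, adjusted p = 0.00136), with a knockout mean of 5.26% of the wild type mean and a value of -4.96 without knockout replicate 2. Scd1 and Scd3 lie on chromosome 19 of the GRCm38 build, at 44394455 to 44407879 on the minus strand and at 44203269 to 44244016 on the plus strand. Of the 100-base windows of their longest coding transcripts, 2.66% for Scd1 and 2.54% for Scd3 occur in a transcript of another gene. The shared windows of Scd1 included 48 found in Scd2, 86 in Scd3 and 17 in Scd4. Such reads could have been assigned to either gene. An antisense gene overlaps Scd3 and the strand setting of the counting was not given in the sources used here.

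The other Scd genes did not move together. Scd2, the desaturase gene of brain and many other tissues, rose by 1.47 (log2, SE 0.44, adjusted p = 0.0306). It had 132, 414 and 423 CPM in knockout skin, against 108, 91.1 and 151 CPM in wild type skin, so knockout replicate 1 lay within the wild type range. Its call ended without knockout replicate 2 or 3 (1.26 and 1.24), without wild type replicate 1 or 2 (1.43 and 1.32) and with library totals in place of TMM factors (1.33). Scd4, a desaturase gene known from mouse heart, fell by 2.84 (SE 0.61, adjusted p = 0.01) from a low level. It had 0.172, 0.593 and 0.522 CPM in knockout skin against 1.5, 2.55 and 5.26 CPM in wild type skin. The fall was 2.22 without wild type replicate 3. Some windows of the far more abundant Scd1 also occur in Scd4, and the part of Scd1 reads in these values was not tested.

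The balance of the family was also compared within each library, a measure that does not depend on library scaling. Per kilobase of exon, Scd1 made up 77.3 ± 11.2% of Scd transcripts in knockout skin and 93.1 ± 3.37% in wild type skin, and Scd2 made up 22 ± 11.2% in knockout skin and 2.43 ± 0.761% in wild type skin (SD, n = 3 each). The log2 ratio of Scd1 to Scd2 per kilobase was lower in knockout skin by 3.37, and that of Scd1 to Scd3 was higher by 2.36. Neither ratio overlapped between the genotypes, and each had an exact two-sided permutation p of 0.1, the smallest that 3 against 3 libraries allow (0.12 adjusted over the 6 ratios compared).

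**Figure D2:**
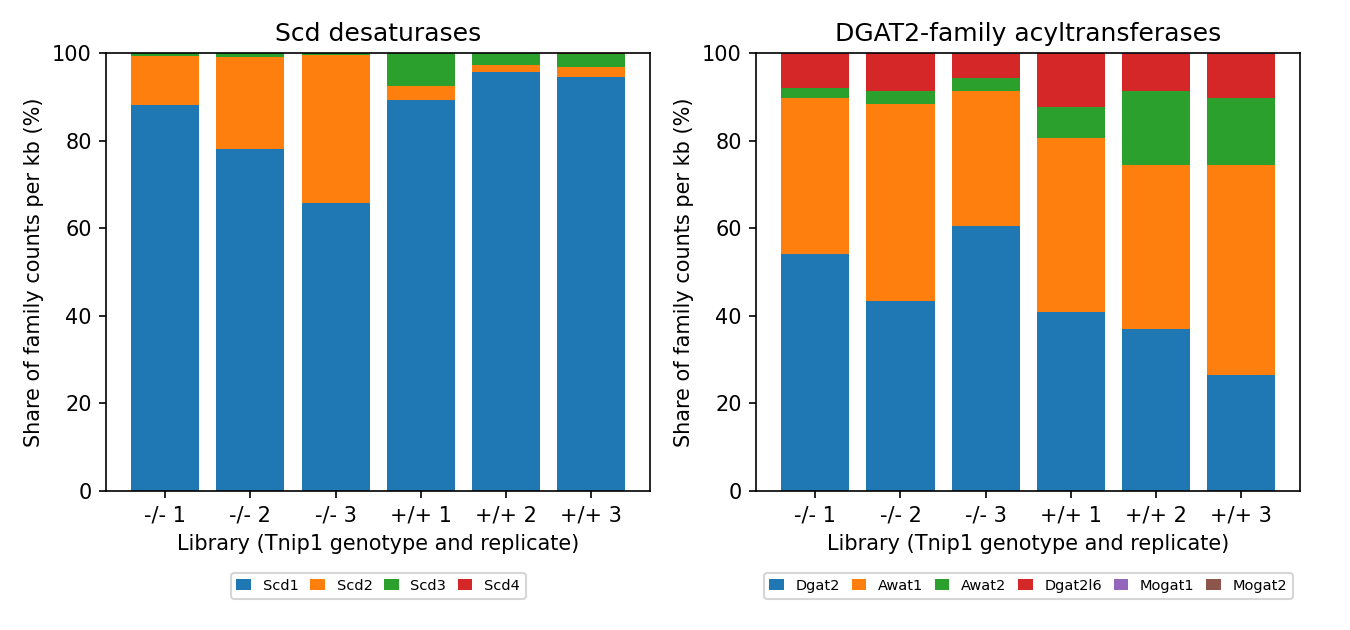
Share of each gene in the summed counts per kilobase of its family, in percent, for every library, with knockout libraries (-/-) left of wild type libraries (+/+). In the Scd family the Scd2 share is larger in each knockout library (11.4% to 33.7%) than in any wild type library (1.64% to 3.16%), and in the DGAT2 family the Awat2 share is smaller in each knockout library (2.44% to 3.13%) than in any wild type library (7.13% to 16.8%).

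Elovl3 encodes an elongase that makes very long fatty acids in sebaceous glands, hair follicles and brown fat. Elovl3 had 180, 245 and 75.0 CPM in knockout skin, against 104, 58.6 and 135 CPM in wild type skin. The libraries of the genotypes were intermixed, with knockout replicates 1 and 2 above every wild type library and knockout replicate 3 within their range. Its log2 fold change was 0.75 (SE 0.46, adjusted p = 0.21), and the gene was not called.

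The elongase genes outside the 10 split by direction. Elovl6, which lengthens palmitate to stearate, fell by 1.59 (SE 0.43, adjusted p = 0.0229). It had 357, 551 and 188 CPM in knockout skin, against 804, 884 and 1612 CPM in wild type skin, and lost its call without knockout replicate 1 (-1.57) or wild type replicate 3 (-1.20). Elovl5, which lengthens polyunsaturated fatty acids, fell by 1.49 (SE 0.31, adjusted p = 0.00863). Elovl1, an elongase gene for very long saturated chains, was higher by 0.61 (adjusted p = 0.0496), and this call ended under 9 of the 15 alternatives. Elovl4 (-0.17) and Elovl7 (0.38) did not pass the test. The log2 ratio of Elovl3 to Elovl6 per kilobase was 0.72, 0.53 and 0.38 in knockout libraries 1 to 3, against -1.25, -2.21 and -1.88 in wild type libraries 1 to 3. The difference was 2.32 (exact permutation p = 0.1, 0.12 adjusted).

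Far2 encodes a fatty acyl-CoA reductase, which turns fatty acids into the fatty alcohols of wax esters. Far2 had 191, 317 and 73.8 CPM in knockout skin, against 488, 541 and 779 CPM in wild type skin. The groups did not overlap, though knockout replicate 2 stood well above knockout replicate 3. It fell by 1.64 (log2, SE 0.49, adjusted p = 0.0309), with a knockout mean of 32.2% of the wild type mean. This was the least stable of the 5 decreases, since leaving out knockout replicate 1 (-1.61), wild type replicate 2 (-1.71) or wild type replicate 3 (-1.39) ended the call. Genes on the opposite strand overlap Far2, among them 2 antisense genes. Awat2 (Otud6a), Elovl3 (Pitx3), Soat1 (Gm37648) and Mogat2 (Gm45012) are also overlapped from the opposite strand. With the strand option of the counting not given, how reads of overlapping genes were counted is not known.

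Far1, the more widely expressed reductase gene, moved the other way. It had 239, 304 and 164 CPM in knockout skin, against 129, 122 and 130 CPM in wild type skin, and rose by 0.89 (SE 0.22, adjusted p = 0.0149). The log2 ratio of Far2 to Far1 per kilobase was -0.19, 0.20 and -1.01 in knockout libraries 1 to 3 and 2.06, 2.29 and 2.72 in wild type libraries 1 to 3. The difference was -2.69 (exact permutation p = 0.1, 0.12 adjusted).

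Awat1 and Awat2 encode acyl-CoA wax alcohol acyltransferases, which join fatty alcohols to fatty acids, and both lie on the X chromosome. Awat2 had 6.81, 9.28 and 7.10 CPM in knockout skin, against 21.9, 43.8 and 67.6 CPM in wild type skin. The 3 knockout libraries were close to each other and all were below the wild type libraries, which spread over a wider range. Awat2 fell by 2.52 (log2, SE 0.40, adjusted p = 0.00354), to 17.4% of the wild type mean. Awat1 had 64.8, 94.2 and 45.6 CPM in knockout skin, against 79.7, 64.1 and 138 CPM in wild type skin. These values overlapped, and the fold change of -0.46 (SE 0.35, adjusted p = 0.309) did not pass the test. The log2 ratio of Awat1 to Awat2 per kilobase was 3.86, 3.96 and 3.30 in knockout libraries 1 to 3, against 2.48, 1.16 and 1.64 in wild type libraries 1 to 3 (difference 1.95, exact permutation p = 0.1, 0.12 adjusted).

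The 250 bases before the start of these neighbouring acyltransferase genes, and of Scd3, the gene with the largest decrease, are shown because Scd3 and Awat2 fell while Awat1 did not pass the test. RefSeq (GRCm38.p6) start sites were given for 5 of the 10 genes (Scd3, Awat1, Awat2, Soat1 and Far2), with 2 starts for Awat2. Each line reads 5′ to 3′ towards the start, and capitals mark the CCAAT letters of an NF-Y box on either strand. Scd3 is at chr19:44203038-44203287 (plus strand), Awat1 at chrX:100571997-100572246 (plus strand), and Awat2 at chrX:100442718-100442967 and chrX:100412588-100412837 (minus strand).
Scd3: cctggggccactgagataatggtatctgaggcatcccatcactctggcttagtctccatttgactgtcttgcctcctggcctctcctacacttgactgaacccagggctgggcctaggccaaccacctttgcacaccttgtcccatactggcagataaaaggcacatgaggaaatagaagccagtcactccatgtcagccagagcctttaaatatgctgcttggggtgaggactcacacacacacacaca
Awat1: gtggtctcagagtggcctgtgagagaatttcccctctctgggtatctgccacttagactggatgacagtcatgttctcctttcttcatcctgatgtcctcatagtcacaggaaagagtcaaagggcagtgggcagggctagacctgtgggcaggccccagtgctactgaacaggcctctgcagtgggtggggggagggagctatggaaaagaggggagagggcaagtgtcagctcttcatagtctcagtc
Awat2 upstream start: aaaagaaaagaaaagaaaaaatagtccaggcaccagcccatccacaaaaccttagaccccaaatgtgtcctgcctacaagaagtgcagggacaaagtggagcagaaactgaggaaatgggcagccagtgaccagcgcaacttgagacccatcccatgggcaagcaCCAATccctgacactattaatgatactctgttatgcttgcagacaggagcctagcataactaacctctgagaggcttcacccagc
Awat2 downstream start: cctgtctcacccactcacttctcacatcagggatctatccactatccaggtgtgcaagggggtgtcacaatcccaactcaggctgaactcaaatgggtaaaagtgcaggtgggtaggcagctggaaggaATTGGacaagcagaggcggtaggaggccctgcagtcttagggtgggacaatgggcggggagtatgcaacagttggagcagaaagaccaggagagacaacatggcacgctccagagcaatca

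Both strands of the 6 windows were searched for sets of letters, not all of which are reported here, and overlaps between sets were allowed. CCAAT was present before both starts of Awat2 and before Soat1, and in 33.8% of 32851 RefSeq windows of the same length. The Sp1 box GGGCGG was present before the downstream Awat2 start and before Far2 (32.7% of windows). The SREBP element TCACNCCAC (1.05%), the PPAR DR1 element (0.338%) and TATAAA (12.4%) were in none of the 6 windows. A match describes letters only, and the counts do not show which start of Awat2 was used.

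Dgat2 encodes the diacylglycerol acyltransferase that makes triglyceride and belongs to the same protein family as Awat1 and Awat2. Dgat2 had 219, 201 and 199 CPM in knockout skin, against 182, 141 and 169 CPM in wild type skin. On this TMM scale every knockout library was above every wild type library by a small amount. The fold change of 0.33 was not called by edgeR (log2, SE 0.13, adjusted p = 0.0694). With library totals in place of TMM factors the fold change was 0.17, so the separation depends on the scaling. DESeq2 called Dgat2 at 0.35 (adjusted p = 0.0435), and its adjusted p ran from 0.0435 to 0.376 over the 15 alternatives. Dgat1, an unrelated enzyme gene for the same reaction, stood at 0.39 (adjusted p = 0.117), and passed without knockout replicate 3 (0.57). The log2 ratio of Dgat2 to Dgat1 differed by -0.04 (exact permutation p = 1), with knockout values from 1.44 to 1.96 and wild type values from 1.63 to 1.72.

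The rest of the Dgat2 family was low or was not called. Dgat2l6, a relative of the wax synthase genes, had 47.4, 61.7 and 27.2 CPM in knockout skin, against 83.7, 49.0 and 98.0 CPM in wild type skin (log2 -0.76, adjusted p = 0.113). Mogat2, a monoacylglycerol acyltransferase gene best known from the intestine, had 1, 0 and 0 counts in the knockout libraries and 3, 0 and 4 in the wild type libraries. At 3 counts a gene would stand at 0.116 to 0.154 CPM in knockout skin and 0.0968 to 0.121 CPM in wild type skin, so Mogat2, with at most 4 counts in a library, could hardly be measured at this depth. Its relative Mogat1 stood at -0.28 (adjusted p = 0.77) from at most 0.666 CPM, and turned to a positive value without knockout replicate 2 (0.22) or wild type replicate 3 (0.11) and with the Xist level as a covariate (0.19). Per kilobase, Awat2 made up 2.82 ± 0.350% of the family in knockout skin and 13.1 ± 5.20% in wild type skin, and Dgat2 made up 52.7 ± 8.65% in knockout skin and 34.8 ± 7.41% in wild type skin (SD, n = 3 each).

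Soat1 encodes an enzyme that esterifies cholesterol. Soat1 had 131, 170 and 58.5 CPM in knockout skin, against 203, 177 and 329 CPM in wild type skin. The groups did not overlap, but knockout replicate 2 and wild type replicate 2 were close to each other. With edgeR the fold change of -0.98 was not called (log2, SE 0.40, adjusted p = 0.086), whereas DESeq2 called it at -0.96 (adjusted p = 0.0333). Its adjusted p ran from 0.0333 to 0.244 over the 15 alternatives. Soat2, the enzyme gene of liver and intestine, was at 2.20, 1.31 and 1.15 CPM in knockout skin against 1.56, 0.748 and 0.259 CPM in wild type skin (log2 0.84, adjusted p = 0.271).

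**Figure D3:**
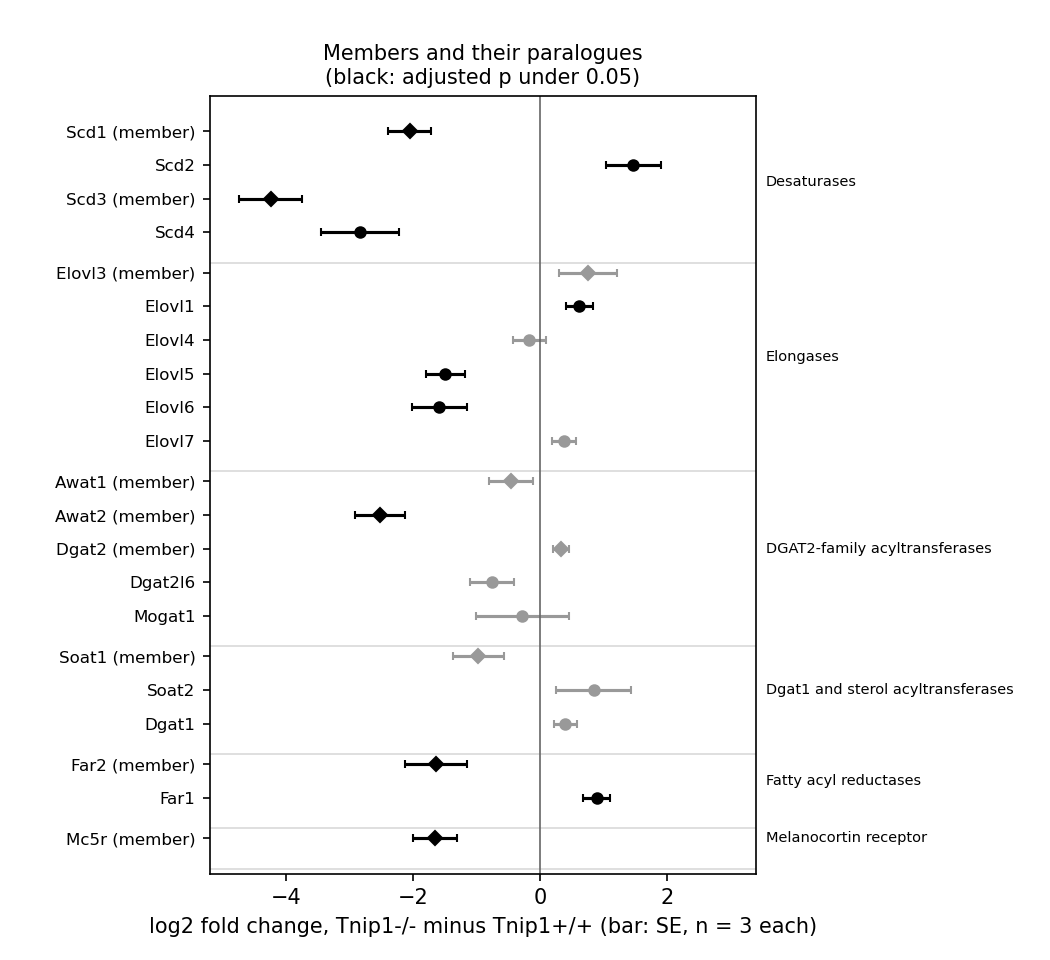
Log2 fold change (knockout minus wild type, bars 1 SE, n = 3 each) of the tested members (diamonds) and their paralogues (circles), grouped by enzyme family, in black where the adjusted p was under 0.05. Scd1 (-2.06) and Scd3 (-4.24) lie left of 0 and Scd2 (1.47) right of it, and Far2 (-1.64) lies left and Far1 (0.89) right.

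Mc5r encodes the melanocortin receptor of exocrine glands, through which melanocortin peptides raise sebum secretion in mice. Mc5r had 36, 33 and 16 counts in the knockout libraries (1.55, 1.40 and 0.836 CPM), against 116, 88 and 151 counts in the wild type libraries (3.48, 2.99 and 5.59 CPM). All knockout libraries were below all wild type libraries. Mc5r fell by 1.66 (log2, SE 0.35, adjusted p = 0.00932), to 31.4% of the wild type mean. Of 9 other melanocortin pathway genes, 4 were tested, 1 was higher and 0 were lower, where 22.3% of all tested genes were higher and 22.7% lower. The gene that rose was agouti (listed as a), which encodes an antagonist of melanocortin receptors in the hair follicle. It had 2.71, 2.5 and 2.14 CPM in knockout skin, against 1.14, 0.884 and 0.740 CPM in wild type skin (log2 1.40, SE 0.26, adjusted p = 0.00596). Mrap, the gene of a receptor accessory protein that fat also expresses, had 9.48, 0.0424 and 10.7 CPM in knockout skin, against 11.5, 35.3 and 15.2 CPM in wild type skin (log2 -1.62, adjusted p = 0.239). The pigment receptor gene Mc1r was too low to test, at 0.0431 to 0.169 CPM in knockout skin and at 0.03, 0.102 and 1.37 CPM in wild type replicates 1, 2 and 3.

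Levels of different genes can be compared only per length, here as CPM per kilobase of the union of GRCm38 exons. In knockout skin the order of mean levels was Scd1 (207), Elovl3 (84.4), Dgat2 (66.9), Awat1 (49.1), Far2 (26.5), Soat1 (12.3), Awat2 (3.64), Scd3 (1.88) and Mc5r (0.323). In wild type skin it was Scd1 (860), Far2 (82.4), Awat1 (67.5), Dgat2 (53.2), Elovl3 (50.2), Scd3 (35.7), Soat1 (24.1), Awat2 (20.9) and Mc5r (1.03). Neighbours in the wild type order overlapped between libraries except at both ends, where Scd1 stood above Far2 and Awat2 above Mc5r. In the knockout order on this scale the breaks were between Scd1 and Elovl3, Soat1 and Awat2, and Scd3 and Mc5r. The exon union of Far2 (7313 bases) is longer than its longest coding transcript (3480 bases), and parts of the order turned when levels were taken over that transcript of each gene. In knockout skin Dgat2 (91.2) then stood above Elovl3 (88.7) and Far2 (55.7) above Awat1 (49.1). Awat1 did not overlap with its new neighbour Soat1, and on the exon scale it had not either (Awat1 from 32.8, Soat1 up to 17.4). In wild type skin Dgat2 (72.4) then stood above Awat1 (67.5). Far2 (173) did not overlap with its new neighbour Dgat2, and on the exon scale it had not either (Far2 from 66.7, Dgat2 up to 58.9).

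Libraries of a genotype were ordered alike for most of the genes, less so at the low end of wild type. Knockout replicate 3 was the lowest knockout library for 8 of the 9 tested genes, Awat2 being the exception. Knockout replicate 2 was the highest for 7, and wild type replicate 3 was the highest wild type library for 7. Wild type replicate 2 was the lowest wild type library for 6, and wild type replicate 1 for Scd1, Awat2 and Far2. The share of all tested genes with these orders was not determined, so they are not shown to be particular to these genes. Wild type replicate 3 also had the highest hair matrix and inner root sheath markers, and its part in the result was not tested. Without it 4 of the 9 genes were lower, as were 3099 of all tested genes, and Scd1, Scd3, Awat2 and Mc5r kept their calls. Among knockout libraries, adipocyte markers did not follow the same order. Knockout replicate 2 had the lowest adipocyte sum there and the highest summed level of the 10 genes, with and without Scd1. Among wild type libraries, replicate 1 had the lowest adipocyte sum (2129 CPM) and the lowest summed level of the 10 genes (3982 CPM). Without Scd1, wild type replicate 2 was the lowest instead (1124 CPM). The part of fat in the levels of the 10 genes was not tested.

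**Figure D4:**
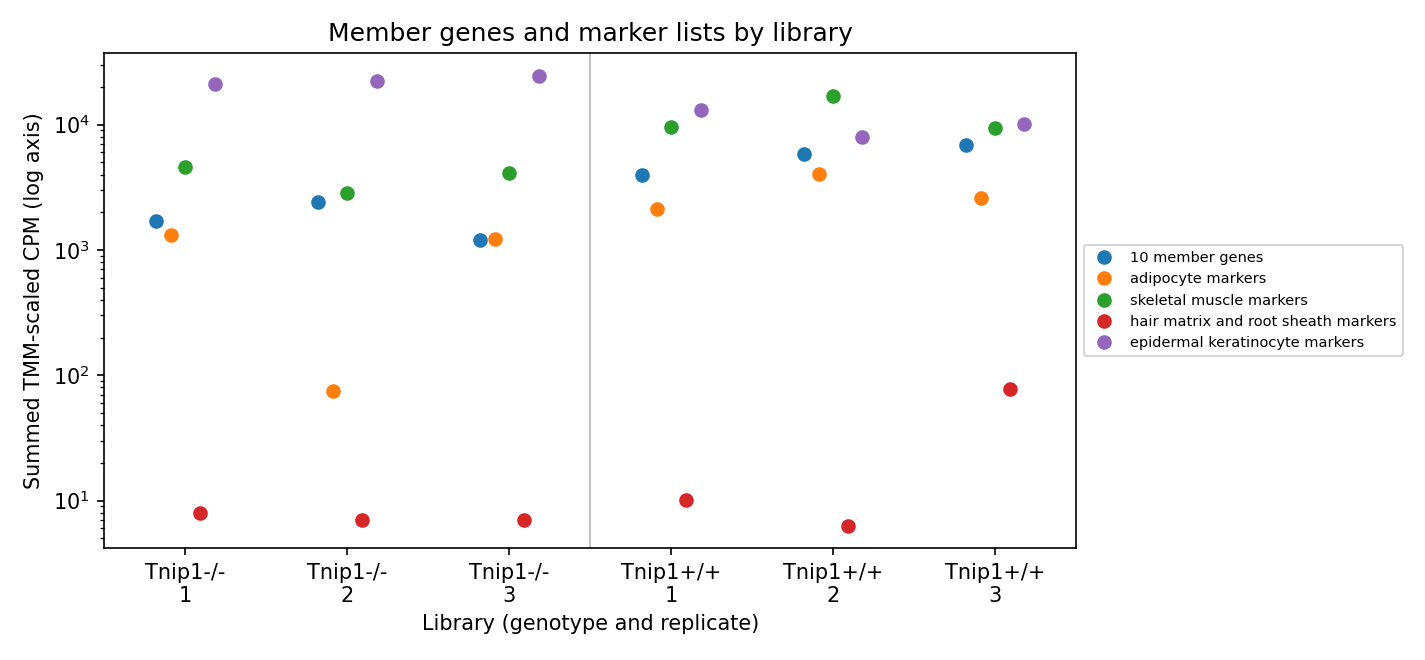
Summed TMM-scaled CPM (log axis) of the 10 genes and of marker lists in each library, knockout libraries left of the line and wild type libraries right of it. Adipocyte markers drop to 74.3 CPM in knockout replicate 2 while the 10 genes stand at 2435 CPM there, and hair markers reach 77.0 CPM only in wild type replicate 3.

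The genes could also be read among libraries alike in Xist. In the libraries with Xist (knockout replicate 3 against wild type replicates 2 and 3), 7 of the 9 genes were lower in the knockout library than in both wild type libraries, as were 43.8% of all tested genes. In those without Xist (knockout replicates 1 and 2 against wild type replicate 1), 6 of the 9 were lower in both knockout libraries, as were 44.7% of all tested genes. Log2 ratios of mean CPM, knockout over wild type, were -2.75 with Xist and -1.25 without it for Scd1, -4.77 and -4.37 for Scd3, -2.97 and -1.45 for Awat2, -2.36 and -1.24 for Mc5r, and -3.16 and -0.94 for Far2. For Awat1 they were -1.15 and -0.00, and for Elovl3 -0.37 and 1.03. With 1 library on a side, these differences were not tested. With the Xist level as a covariate, chosen after seeing the data, the same 5 genes were called lower, as were 3313 of all tested genes.

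The sebocyte label was set against marker genes of the gland. Krt79, a keratin of the upper follicle and gland duct, had 901, 1264 and 548 CPM in knockout skin, against 807, 433 and 945 CPM in wild type skin (log2 0.31, adjusted p = 0.52). Pparg, which encodes the nuclear receptor that drives both sebocyte and adipocyte differentiation, had 25.1, 20.4 and 27.3 CPM in knockout skin, against 37.9, 78.9 and 47.7 CPM in wild type skin. Both markers were thus present in all 6 libraries, and Pparg fell by 1.18 (SE 0.28, adjusted p = 0.0135). Like the adipocyte sum, Pparg was lowest in knockout replicate 2 and highest in wild type replicate 2. The part of fat in its decrease was not tested.

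Of 15 sebocyte markers and regulators, 2 rose and 5 fell, with a median of -0.47, where 22.3% of all tested genes rose and 22.7% fell. The gene of the stem cell marker Lgr6 fell by 1.86 and the transcription factor gene Gata6, active in the gland duct, by 1.34. Acsbg1, an acyl-CoA synthetase gene, fell by 0.76, a call that ended without any 1 of 5 libraries and with the Xist level as a covariate (-0.75). The genes that rose were Prdm1, a transcription factor gene of sebaceous and epidermal cells, by 1.01 and Fabp5, an epidermal fatty acid-binding protein gene, by 3.2. Fabp5 and Prdm1 are also expressed by the epidermis, whose markers moved in both directions, and its part in these values was not tested. Fa2h, a fatty acid hydroxylase gene of the gland, stood at -1.37 (adjusted p = 0.0931) with edgeR and was called with DESeq2 (-1.36).

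Of 26 other genes of fatty acid synthesis, elongation and desaturation, 3 rose and 9 fell, with a median of -0.37. Over all tested genes 22.3% rose and 22.7% fell. Besides Elovl5, Elovl6 and Scd4, those with the smallest p that fell were Tecr, an enzyme gene of the elongation cycle, by 1.05, the desaturase family gene Fads3 by 1.10, the acyl-CoA synthetase gene Acsl4 by 0.90 and Acacb, an acetyl-CoA carboxylase gene, by 1.12. Ptplad1, a dehydratase gene of the elongation cycle, rose by 0.84. The fatty acid synthase gene Fasn stood at 0.30 (adjusted p = 0.5) and the lipogenic regulator Srebf1 at 0.27 (adjusted p = 0.277), and neither passed the test. Fasn turned to -0.05 without knockout replicate 3. The number that rose was 1 with library totals alone and without knockout replicate 2, knockout replicate 3 or wild type replicate 2.

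Of 24 other genes of glycerolipid, wax ester and lipid droplet metabolism, 3 rose and 5 fell, with a median of -0.18 (3 lower without wild type replicate 3). Neither share was above that of all tested genes (22.3% higher and 22.7% lower). Lpin2, a phosphatidate phosphatase gene, rose by 1.84 (SE 0.13, adjusted p = 0.000305), and Abhd5, whose product activates triglyceride breakdown, rose by 0.68. The genes that fell were Plin4 (-2.0), the lipase genes Pnpla2 (-1.85) and Lipe (-1.43), the droplet protein gene Cidea (-1.11) and Lpin1 (-0.85). All of Plin4, Pnpla2, Lipe and Lpin1 are known from adipocytes and were lowest in knockout replicate 2, the library nearly without adipocyte markers, and the part of fat in these values was not tested. Cidea, which is also known from sebocytes, was lowest in knockout replicate 3, and lost its call without knockout replicate 1 (-1.11) or wild type replicate 3 (-0.84). Lpin1 lost its call without knockout replicate 2 or 3 (-0.69 and -0.75) or wild type replicate 2 or 3 (-0.70 and -0.85), and with the Xist level as a covariate (-0.81). Plin2, which coats lipid droplets in many cells, stood at -0.17 (adjusted p = 0.549).

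**Figure D5:**
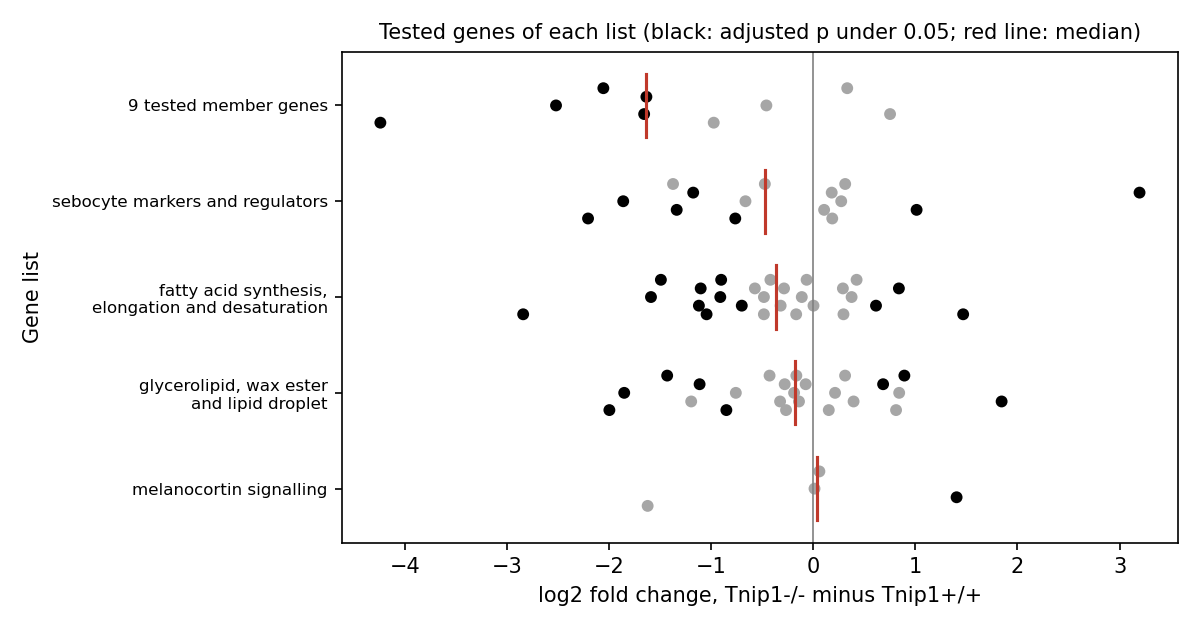
Log2 fold change (knockout minus wild type) of each tested gene of the 9 tested members and of 4 lists of related genes, with black points for an adjusted p under 0.05 and a red line at the median. The median is -1.64 for the members, -0.47 for sebocyte markers and regulators, -0.37 for fatty acid synthesis, -0.18 for glycerolipid and lipid droplet genes and 0.04 for melanocortin genes.

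Among 12811 candidates, the 6 genes whose level ran most like the mean of the 9 tested genes over the 6 libraries were Elovl5, Pxmp4, Rgs9, Ppara, Mansc1 and Cidea. Candidates were tested genes outside the 10, after genes of low mean level and predicted, ribosomal, pseudogene or small RNA names were left out. Likeness was the root mean square difference between centred log2 CPM profiles, and it was 0.08 for Elovl5, 0.12 for Pxmp4 and Rgs9, 0.13 for Ppara and 0.15 for Mansc1 and Cidea. The mean profile stood at -0.66, -0.18 and -1.29 in knockout replicates 1, 2 and 3, and at 0.55, 0.46 and 1.12 in wild type replicates 1, 2 and 3. Lower knockout levels of the 6 genes therefore follow from how they were picked. Elovl5 had 86.3, 133 and 59.9 CPM in knockout skin, against 226, 226 and 334 CPM in wild type skin. Pxmp4, a peroxisomal membrane protein gene, had 37.7, 50.5 and 26.8 CPM in knockout skin, against 102, 93.7 and 124 CPM in wild type skin. Ppara, the gene of a nuclear receptor that controls fatty acid use, had 2.71, 3.52 and 2.04 CPM in knockout skin, against 7.56, 6.97 and 9.96 CPM in wild type skin.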

How the data were processed

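Skin RNA of 3 Tnip1-/- and 3 Tnip1+/+ mice was analysed, with groups from the labels and separate mice per the design text. The deposited values were raw counts per gene symbol, 1 file per library. Per the submitters' processing notes, STAR, BWA and HTSeq were used on mm9, besides CASAVA 1.7 and, in R 3.2.3, limma; strand option, settings and annotation are not given in the sources used here. The 5 summary lines of each file (26.7% to 30.3%) were left out.

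Counts were fitted in R 4.3.3 with edgeR 4.0.16 (TMM, default filterByExpr, quasi-likelihood, Benjamini-Hochberg over 16691 genes), and the procedure was tested on simulated data. Fold changes (log2) are knockout over wild type, with SE from the F statistic. No library duplicated another (chi-square over degrees of freedom 30.8 to 124 within a genotype). Alternatives were DESeq2 1.42.0, library totals, upper-quartile factors, limma 3.58.1 voom, 2 other filters, robust dispersion, a replicate block, leaving out each library and, added after seeing the data, Xist as a covariate. Positions, lengths and promoters come from GRCm38, a later build than that of the files, matched by symbol.

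The 10 genes and all lists were chosen with earlier results of these data known. Named were the 10 genes, Tnip1, their paralogues in the lists, up to 8 genes per list with the smallest p, list-order markers and the 6 nearest profiles. Fasn, Srebf1 and Plin2 were chosen after their values were seen. A gene of the sebocyte list is counted but not reported here.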

Additional observations from a re-analysis of the deposited data

How the results depend on the processing

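Scd1, Scd3, Awat2 and Mc5r were called lower under all 15 alternatives, and Far2 under 11. Leaving out 1 library at a time left 4 to 5 of the 9 genes lower and 0 higher. Over all tested genes it left 2679 to 3445 lower and 2792 to 3421 higher. It gave Far2 values of -2.17 to -1.24, with calls lost at adjusted p of 0.0615 to 0.0852. DESeq2 called Dgat2 higher (0.35, so 1 gene higher) and Soat1 lower (-0.96), with 5 glycerolipid genes higher. Over all tested genes DESeq2 called 4142 higher and 3948 lower. With library totals alone 2490 genes were higher and 4809 lower, against 3730 and 3795 with TMM factors, the median of all genes moved to -0.19 and 1 fatty acid gene was higher. Leaving out 1 library gave 1 to 3 fatty acid genes higher and 6 to 9 lower, and 3 to 6 glycerolipid genes lower. It moved the Dgat2 to Dgat1 difference between -0.20 and 0.0602 (0.0343 without knockout replicate 2). Same-numbered libraries did not deviate together (correlations of 0.01, -0.21 and 0.19 across genes), so the numbers were not taken as pairs. With a replicate block 6465 genes were called instead of 7525, and Far2 stood at -1.81 (adjusted p = 0.0549). Among the genes named, the block also ended the calls of Elovl6 (-1.62, adjusted p = 0.0597), Elovl1 (0.63), Acsbg1 (-0.78), Lpin1 (-0.87) and Cidea (-1.12). With 3 libraries a side, ratios could not pass a permutation test, and Mogat2 had too few counts to be tested in the main fit. The causes of these shifts were not tested.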
